A study of Mus musculus with 16 samples.

Results

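The interneuron identity genes comprise 9 genes of cortical inhibitory neurons: Gad1, Gad2, Slc32a1, Pvalb, Sst, Vip, Npy, Cck and Lhx6. They were taken by gene symbol from the RPKM (reads scaled by gene length and by library size) of 16 mouse cortices. All 9 were found among 24060 listed genes, and all 9 were among the 12015 genes with a mean of at least 1 RPKM that entered the tests. The mice were 8 to 9 months old, of a strain labelled C57BL/6; C3, and fell into 4 genotypes of 4 mice, each with 2 females and 2 males. P301S+ TREM2-/- mice (tau knockouts) had a transgene for P301S tau, a disease mutant of a protein that binds microtubules, and no intact Trem2 allele. P301S+ TREM2+/- mice (tau heterozygotes) carried the transgene and 1 Trem2 allele. P301S+ TREM2+/+ mice (tau TREM2+/+ mice) carried the transgene and an intact Trem2, the gene of a lipid-sensing receptor of microglia. TREM2+/+ mice (controls) had an intact Trem2 and no transgene. The sources used here name neither the promoter that drives the transgene nor the form of the Trem2 null allele.

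Interneurons are the inhibitory cells of the cortex and release GABA, which glutamate decarboxylases make and a vesicular transporter loads into synaptic vesicles. Their main classes are told apart by a calcium-binding protein or a neuropeptide, with parvalbumin, somatostatin and vasoactive intestinal peptide marking classes that overlap little in the cortex. Some of these genes are also active elsewhere: Cck is made by many excitatory cortical neurons, and Gad1, Gad2 and Slc32a1 by the GABA-releasing projection neurons of the striatum, which lies beneath the cortex.

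The 250 bases before a RefSeq transcription start are shown for the paired synthesis genes Gad1 and Gad2, whose levels are set against each other below. They are also shown for the peptide genes Sst and Vip, textbook targets of the cAMP pathway. For Gad1, Gad2 and Sst that start lies inside the gene span given further below, which is from GENCODE. The Gad1 window is wholly within that span, and the Gad2 and Sst windows partly. Sequences are from RefSeq (GRCm38.p6), read 5′ to 3′ on the gene's strand: Gad1 at chr2:70561879-70562128 and Gad2 at chr2:22622077-22622326 on the plus strand, Sst at chr16:23890845-23891094 on the minus strand and Vip at chr10:5638968-5639217 on the plus strand. Capitals mark letters of the motifs searched on both strands, the cAMP response element TGACGTCA, its core TGACG and the TATA box TATAAA.
Gad1: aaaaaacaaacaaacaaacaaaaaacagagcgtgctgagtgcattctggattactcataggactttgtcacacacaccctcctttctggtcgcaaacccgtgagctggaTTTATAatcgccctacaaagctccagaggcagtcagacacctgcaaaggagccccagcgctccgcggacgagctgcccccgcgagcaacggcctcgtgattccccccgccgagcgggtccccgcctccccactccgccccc
Gad2: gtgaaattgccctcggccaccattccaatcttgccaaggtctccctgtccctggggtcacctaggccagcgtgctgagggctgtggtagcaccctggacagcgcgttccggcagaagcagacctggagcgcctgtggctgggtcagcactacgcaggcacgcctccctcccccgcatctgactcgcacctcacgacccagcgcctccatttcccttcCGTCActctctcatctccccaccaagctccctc
Sst: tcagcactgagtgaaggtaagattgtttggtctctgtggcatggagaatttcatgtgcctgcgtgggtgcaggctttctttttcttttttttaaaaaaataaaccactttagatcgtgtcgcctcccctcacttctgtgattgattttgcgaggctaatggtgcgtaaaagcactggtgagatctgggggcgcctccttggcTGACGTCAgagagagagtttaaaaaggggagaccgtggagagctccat
Vip: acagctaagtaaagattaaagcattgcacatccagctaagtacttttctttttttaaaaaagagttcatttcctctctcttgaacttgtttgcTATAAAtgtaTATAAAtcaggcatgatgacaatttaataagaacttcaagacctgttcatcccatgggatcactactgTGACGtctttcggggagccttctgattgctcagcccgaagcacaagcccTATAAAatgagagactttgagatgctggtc
The full cAMP response element was present in the Sst window, starting 48 bases before the start, and in no other member's window; 1.55% of 32851 mouse promoter windows of this length held it. Its core, which the full element contains, was present for Cck, Gad2, Sst and Vip, and in 17.8% of all windows. The TATA box letters were present for Gad1 (read on the opposite strand) and Vip, and in 12.4% of all windows. The windows of Slc32a1, Pvalb, Npy and Lhx6 held none of these letters. These are matches of letters, and no binding was measured.

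Libraries held 2.55 to 14.47 times 1000000 reads, and the member with the fewest reads, Lhx6, still had 34 to 112 reads in every library. Trem2 averaged 2.09 ± 1.12 RPKM in tau knockouts, 12.9 ± 8.98 in tau heterozygotes, 27.0 ± 8.69 in tau TREM2+/+ mice, against 12.4 ± 5.53 in controls (n = 4 each, SD). Every gene of the excitatory neuron list was detected in every library. The striatum list summed to 910 to 4300 reads per 1000000 and the choroid plexus list to 391 to 3080, with Drd2, Gpr6, Folr1 and Aqp1 at 0 in some libraries. 3 libraries stood apart over all genes. Control replicate 3, a female, lay at -130.8 on the first principal component (52.4% of the variance), where the others lay between -18.8 and 23.5. The females of the tau TREM2+/+ mice, replicates 1 and 2, lay at -45 and -41.3 on the second (14.6%), where the others lay between -12.5 and 21.4. These libraries are named below wherever a result rests on them. RPKM divides 3' end reads by gene length, so levels are compared only for the same gene between mice. Fewer cells of a type and less RNA per cell cannot be told apart in bulk tissue.

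No member differed between genotypes beyond the spread among mice, in any of 5 comparisons or in the test across all 4 genotypes at once. The genotype means ran in the same order for Gad1, Gad2 and Slc32a1, highest in tau heterozygotes and then in tau TREM2+/+ mice, tau knockouts and controls, and in other orders for the other 6 members. No neighbours that were tested against each other differed beyond their spread. Tau knockouts and tau heterozygotes were not each tested against controls, and for those pairs only the ranges were compared. The ranges of RPKM overlapped for all 9 members in all 6 pairs of genotypes. The share of all genes with overlapping ranges was not computed, so this overlap cannot be called particular to the members. The members together took 2250 to 2508 reads per 1000000 in tau knockouts, 2162 to 2525 in tau heterozygotes, 2377 to 2616 in tau TREM2+/+ mice and 1716 to 2406 in controls. Single mice spanned 2.32-fold for Sst to 7.68-fold for Gad1 between the lowest and the highest library. The highest genotype mean exceeded the lowest by 1.19-fold for Sst to 1.49-fold for Slc32a1.

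**Figure D1:**
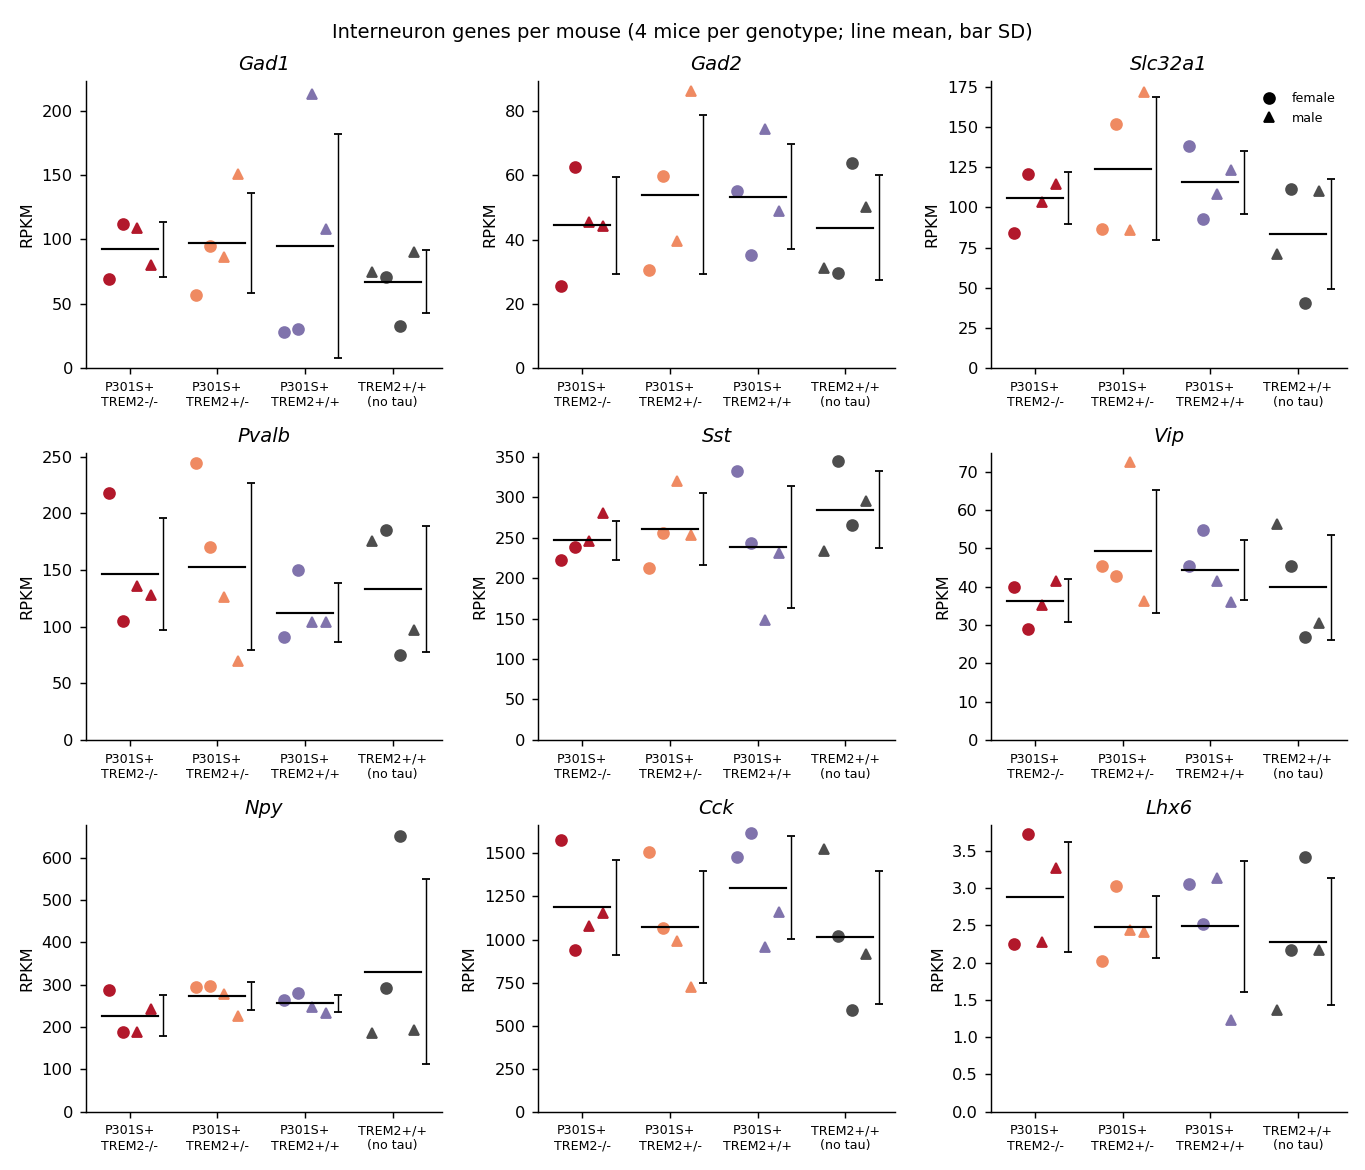
RPKM of the 9 interneuron genes in each mouse, by genotype, with females as circles and males as triangles; horizontal lines are means and vertical bars SD over 4 mice. In every panel the points of the genotypes overlap, with Gad1 of tau TREM2+/+ mice (27.7 to 213 RPKM) and Npy of controls (186 to 651 RPKM) the most widely spread.

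Gad1 (chr2:70553072-70602014, plus strand) encodes the glutamate decarboxylase that makes most GABA of the cell body. It was at 69.0, 112, 109 and 80.0 RPKM in tau knockouts and at 56.8, 95.2, 86.0 and 150.4 RPKM in tau heterozygotes. Tau TREM2+/+ mice had 27.7, 30.4, 213 and 108 RPKM, and controls 74.5, 70.8, 32.8 and 90.4 RPKM. The 3 lowest values belonged to the 3 libraries that stood apart, and the highest to a male of the same genotype as the lowest. The coefficient of variation was 92.0% in tau TREM2+/+ mice, against 36.4% in controls.

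Gad2 (chr2:22622205-22693874, plus strand), the decarboxylase of axon terminals, had 25.4, 62.5, 45.5 and 44.4 RPKM in tau knockouts and 30.6, 59.8, 39.5 and 86.3 RPKM in tau heterozygotes. It was at 55.2, 35.2, 74.3 and 49.0 RPKM in tau TREM2+/+ mice, against 31.1, 29.7, 63.9 and 50.1 RPKM in controls. The lowest mouse was a tau knockout and the highest a tau heterozygote, and the ranges of the genotypes overlapped.

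Slc32a1 (chr2:158610767-158615748, plus strand), the vesicular GABA transporter, had 84.3, 121, 103 and 115 RPKM in tau knockouts and 86.5, 152, 86.0 and 172 RPKM in tau heterozygotes. Tau TREM2+/+ mice had 138, 92.9, 108 and 123 RPKM, against 70.8, 111, 40.5 and 111 RPKM in controls. It came nearest to a genotype difference: limma, a linear model fitted over all genes, gave a log2(RPKM + 1) difference of 0.54 between all 12 tau mice and controls (95% interval -0.008 to 1.08, limma adjusted p = 0.306). Without control replicate 3 that difference was 0.23, and the controls averaged 97.5 ± 23.1 RPKM (SD, n = 3), against 83.3 ± 34.2 RPKM with it (SD, n = 4). Exons of Slc32a1 overlap those of Gm14205 on the opposite strand, and those of Lhx6 overlap Gm27953. No source used here says whether counting was by strand, and the reads of each pair cannot be told apart.

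Pvalb (chr15:78191114-78206400, minus strand), the calcium-binding protein of fast-spiking interneurons, had 218, 105, 136 and 128 RPKM in tau knockouts and 245, 170.5, 126 and 70.0 RPKM in tau heterozygotes. It was at 91.0, 150, 104 and 104 RPKM in tau TREM2+/+ mice and at 175, 186, 74.7 and 96.8 RPKM in controls. The lowest and the highest values of the series were both in heterozygotes. Lhx6 (chr2:36081953-36105408, minus strand), a transcription factor needed for the parvalbumin and somatostatin classes, was low, at 2.25 to 3.72 RPKM in tau knockouts, 2.03 to 3.03 in tau heterozygotes, 1.24 to 3.14 in tau TREM2+/+ mice and 1.36 to 3.42 in controls.

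Sst (chr16:23889573-23890958, minus strand), which encodes the inhibitory peptide somatostatin, had 223, 238, 245 and 280 RPKM in tau knockouts and 212, 256, 320 and 254 RPKM in tau heterozygotes. It was at 333, 243, 149 and 231 RPKM in tau TREM2+/+ mice, against 233, 345, 266 and 295 RPKM in controls. It was the steadiest member, with a coefficient of variation of 19.1% over all 16 mice. Its difference between tau TREM2+/+ mice and controls was -0.29 on the log2(RPKM + 1) scale, with a 95% interval of -0.77 to 0.19 (limma adjusted p = 0.543). It was -0.08 without tau TREM2+/+ replicate 3, -0.47 without replicate 1 of that genotype and -0.66 without the 3 libraries that stood apart (limma adjusted p = 0.882, 0.649 and 0.763).

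Vip (chr10:5639218-5647617, plus strand) marks interneurons that mostly inhibit other interneurons. It had 39.9, 29.0, 35.2 and 41.3 RPKM in tau knockouts, 45.3, 42.8, 72.6 and 36.2 in tau heterozygotes, 45.5, 54.6, 41.5 and 35.9 in tau TREM2+/+ mice and 56.5, 45.3, 26.9 and 30.5 in controls. Between tau knockouts and tau heterozygotes it gave the lowest p of any member in that comparison, at a log2(RPKM + 1) difference of -0.39 (95% interval -0.93 to 0.15, limma adjusted p = 1.0). Without tau heterozygote 3, the mouse at 72.6 RPKM, it was -0.18.

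Npy (chr6:49822710-49829507, plus strand), a peptide of long-range and neurogliaform interneurons, had 288, 188, 188 and 242 RPKM in tau knockouts and 294, 296, 278 and 226 in tau heterozygotes. It was at 263, 281, 247 and 232 RPKM in tau TREM2+/+ mice, against 186, 293, 651 and 193 RPKM in controls. The value of 651 RPKM was that of control replicate 3. The controls averaged 331 ± 219 RPKM (SD, n = 4) with this library and 224 ± 59.8 (SD, n = 3) without it. The log2 difference between tau TREM2+/+ mice and controls was -0.17 with it and 0.17 without it, neither past the threshold (limma adjusted p = 0.784 with it and 0.536 without it).

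Cck (chr9:121489824-121495694, minus strand), the gene of cholecystokinin, had 1580, 939, 1077 and 1156 RPKM in tau knockouts and 1506, 1065, 989 and 725 RPKM in tau heterozygotes. It was at 1477, 1616, 955 and 1158 RPKM in tau TREM2+/+ mice, against 1524, 1018, 588 and 919 RPKM in controls. It supplied 25.0% to 56.0% of all member reads, so the members' sum above leans on it.

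Of the 9 members, 0 passed an adjusted p of 0.05 (Benjamini-Hochberg over all genes tested) for complete loss, tau knockouts against tau TREM2+/+ mice, where 0.00832% of all genes passed, Trem2 alone. The members' lowest adjusted p there was 0.741. For partial loss, tau heterozygotes against tau TREM2+/+ mice, 0 members passed and 0.0% of all genes. For tau knockouts against tau heterozygotes it was again 0 members and 0.0% of all genes. The P301S effect, tau TREM2+/+ mice against controls, gave 0 members and 0.0% of all genes, with a lowest adjusted p of 0.421 for Slc32a1. All tau mice against controls gave 0 members and 0.00832% of all genes, Prnp alone. The F test across all 4 genotypes gave 0 members, with adjusted limma p-values of 0.625 to 0.856, and 0.0% of all genes. At an unadjusted limma p under 0.05, 0 members passed in any of these, against 1190, 324, 411, 1657, 1976 and 955 of all genes in the order given. Limma on the recovered reads (voom) also called 0 members in each.

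The precision differed between members. Gad1 had the widest: for complete loss its log2 difference was 0.44, with a 95% interval of -0.47 to 1.35. In RPKM + 1 that spans a ratio of 0.721 to 2.54. Its direction depended on which tau TREM2+/+ mice were kept. The difference was -0.58 without both females of that genotype and control replicate 3, which is in neither group compared. That left 2 tau TREM2+/+ males, at 213 and 108 RPKM. Without only the male at 213 RPKM, the highest of the series, the difference was 0.87. Lhx6 had the narrowest interval, at 0.18 for complete loss (interval -0.29 to 0.64), a ratio of 0.819 to 1.56. At its 1.24 to 3.72 RPKM the added 1 shrinks differences and intervals, so this width is not like that of the other members. Its coefficient of variation over all mice, 27.8%, was above the 19.1% of Sst. Cck lay between, at -0.13 for complete loss (interval -0.78 to 0.52), a ratio of 0.585 to 1.43. Half-widths of the intervals for complete loss thus ran from 0.464 for Lhx6 to 0.909 for Gad1 on the log2 scale, and a difference would have to exceed its half-width for the interval to leave out 0.

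**Figure D2:**
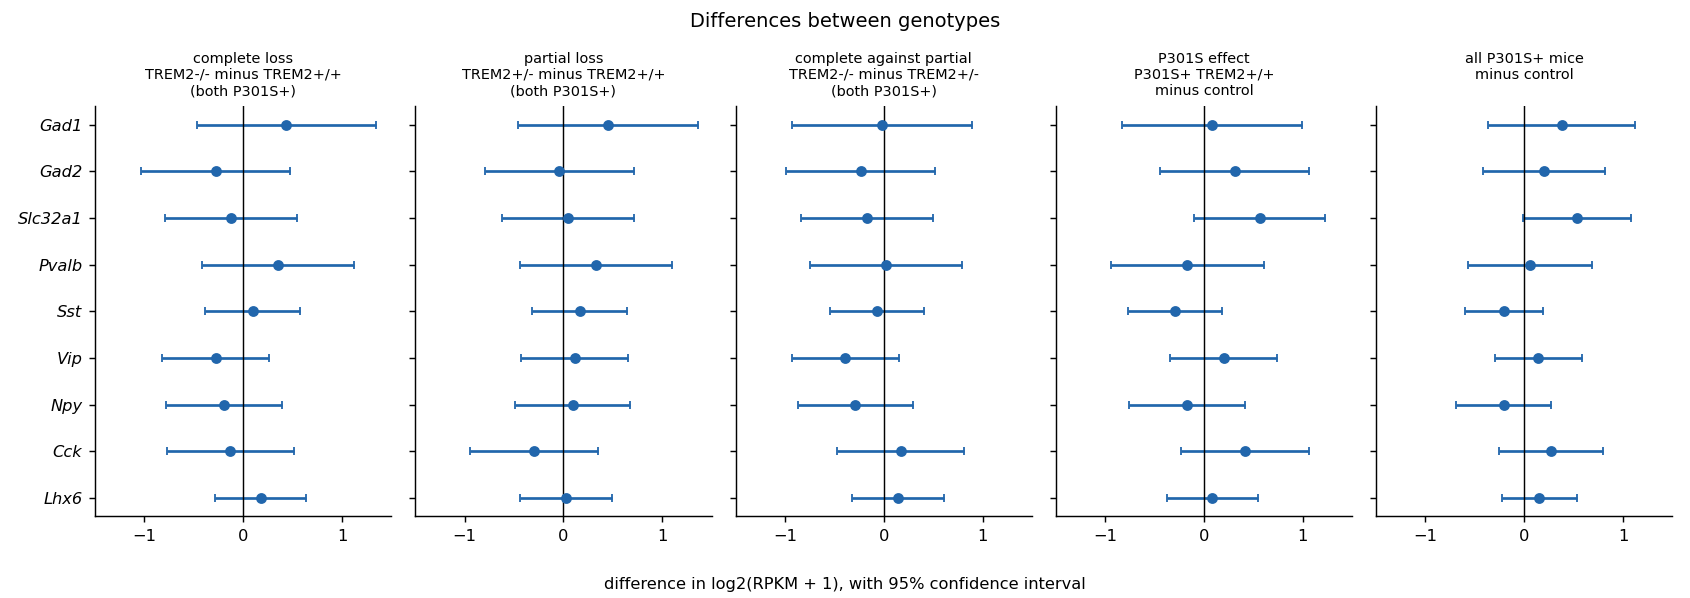
Difference in log2(RPKM + 1) of each interneuron gene in 5 comparisons, with the 95% confidence interval from limma (16 libraries, sex as covariate). Every interval includes 0; that of Slc32a1 between all tau mice and controls runs from -0.008 to 1.08.

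Whether genotype differences depended on sex was tested with an interaction term, with 2 mice for each genotype and sex. Gad1 averaged 90.6 RPKM in females and 94.3 RPKM in males of the tau knockouts, and 76.0 RPKM in females and 118 RPKM in males of the tau heterozygotes. It averaged 29.0 RPKM in females and 160 RPKM in males of the tau TREM2+/+ mice, against 51.8 RPKM in females and 82.4 RPKM in males of the controls. On average Gad1 was thus higher in tau knockouts than in tau TREM2+/+ mice among females, and lower among males. The males overlapped, at 109 and 80.0 RPKM in tau knockouts against 213 and 108 RPKM in tau TREM2+/+ mice. The female difference minus the male difference was 2.26 on the log2(RPKM + 1) scale (SE 0.637, limma adjusted p = 0.461), which did not pass over all genes. The tau TREM2+/+ females are replicates 1 and 2, both among the libraries that stood apart. 0 of 9 members passed for this test, against 0.0% of all genes. At an unadjusted limma p under 0.05, 1 of 9 members passed, against 870 of all genes, or 7.24%. Gad1 was the 1 member to pass with limma array weights (adjusted p = 0.0307), where 3.7% of all genes passed, and with only the compared genotypes in the fit (limma adjusted p = 0.03), where 3.47% did. It was also the 1 member to pass without control replicate 2 (limma adjusted p = 0.029, with 4.7% of all genes) and without control replicate 3 (limma adjusted p = 0.0289, with 4.74%). For partial loss the sex difference of Gad1 was 1.73 (limma adjusted p = 0.707) and that of Sst was -0.90 (limma adjusted p = 0.762), and 0 members passed, against 0.0% of all genes.

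For the P301S effect, 0 members passed the test for a difference between the sexes, against 0.00832% of all genes, Gm10373 alone. The values were -1.59 for Gad1 (limma adjusted p = 0.352), 1.17 for Cck (limma adjusted p = 0.371) and -1.02 for Npy (limma adjusted p = 0.379). Without control replicate 2, which leaves replicate 3 as the only control female, Cck and Npy, 2 of 9 members, passed (lowest limma adjusted p = 0.00141), but so did 5012 of all genes, or 41.7%. The lone control female is then assumed to vary like the other mice.

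Gad1 was low beside Gad2 in the 3 libraries that stood apart. The ratio of Gad1 reads to Gad2 reads was 1.56, 1.03, 1.37 and 1.04 in tau knockouts and 1.07, 0.914, 1.25 and 1.0 in tau heterozygotes. Tau TREM2+/+ mice had ratios of 0.288 and 0.496 in the females and 1.64 and 1.26 in the males, against 1.38, 1.37, 0.295 and 1.04 in controls. The 3 ratios under 0.5 were thus those of both tau TREM2+/+ females and of control replicate 3, and no other mouse was under 0.9. The synaptic gene Snap25 was also low in these 3 mice, at 468 and 604 RPKM in the tau TREM2+/+ females and 419 RPKM in control replicate 3, against 652 to 1630 RPKM in the other 13. The 12 pan-neuron genes, Snap25 among them, were not low as a set. Their mean log2(RPKM + 1) was 7.69 and 7.79 in those females and 7.8 in control replicate 3. The other 13 had 7.49 to 7.9. The part of whatever sets these libraries apart in the Gad1 values was not tested.

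**Figure D3:**
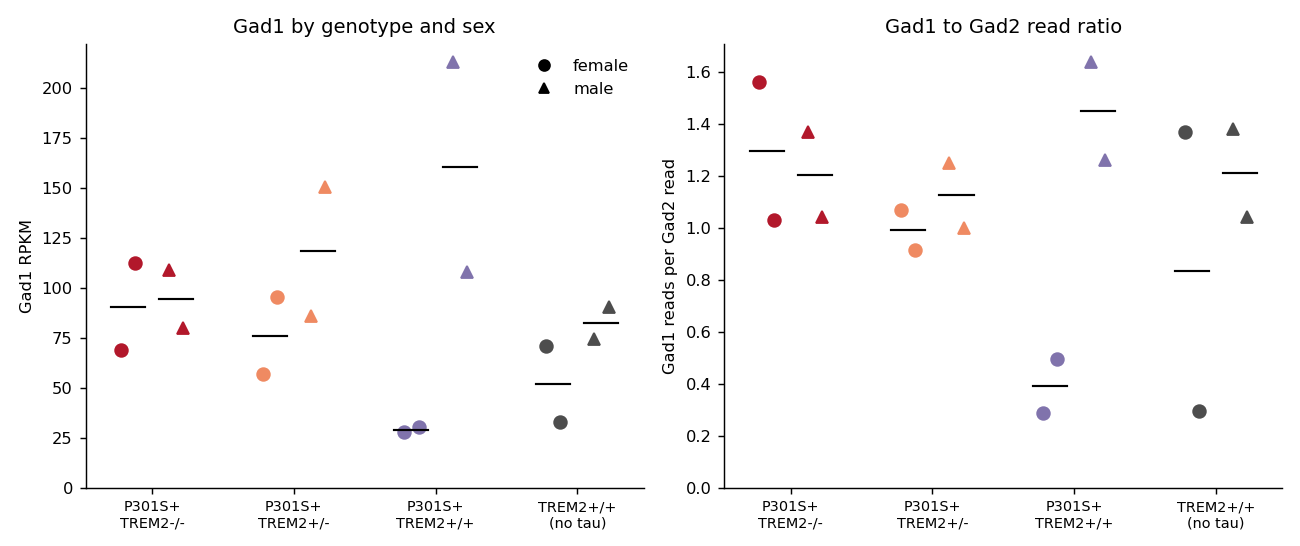
Gad1 RPKM (left) and Gad1 reads per Gad2 read (right) in each mouse by genotype and sex, with lines at the mean of 2 mice. The tau TREM2+/+ females sit at 27.7 and 30.4 RPKM and at ratios of 0.288 and 0.496, and control replicate 3 at 32.8 RPKM and 0.295.

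Across the 16 mice the members did not vary as a block. Of 36 pairs, 16 had a positive Pearson correlation of log2(RPKM + 1), and the median r was -0.10. 3 pairs passed (permutation test with 100000 resamples, two-sided, adjusted over 36 pairs). Gad2 fell as Pvalb rose, with r = -0.84 (permutation p = 0.0001, adjusted p = 0.0036) and Spearman's rho of -0.84 (permutation p = 8e-05, adjusted p = 0.0029). Without the 2 mice farthest from the median of Gad2, r was -0.75. Within genotypes, taken as deviations from each genotype's mean, it was -0.88. This pair passed in all 20 other settings tried, with r from -0.92 to -0.78.

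Gad2 and Cck gave r = -0.70 (permutation p = 0.0024, adjusted p = 0.03), rho = -0.72 (permutation p = 0.0026, adjusted p = 0.047) and r = -0.58 without the 2 farthest mice. Pvalb and Cck gave r = 0.70 (permutation p = 0.0025, adjusted p = 0.03), rho = 0.67 (permutation p = 0.0056, adjusted p = 0.068) and r = 0.60. Both of these depended on single mice. The Gad2 and Pvalb pair was the only 1 to pass when tau TREM2+/+ replicate 2, tau heterozygote 1 or 4, tau knockout 1 or 2, or control 1 or 4 was left out. Without control replicate 3, Gad2 also rose with Slc32a1 (r = 0.79, adjusted permutation p = 0.0081) and Gad1 fell as Cck rose (r = -0.75, adjusted permutation p = 0.011), 4 pairs in all. Pvalb with Cck was not among them (r = 0.63, adjusted permutation p = 0.073). Leaving out tau heterozygote 3 also gave 4 pairs. With control 3, r was 0.34 for Gad2 with Slc32a1 (rho 0.48) and -0.33 for Gad1 with Cck (rho -0.51).

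**Figure D4:**
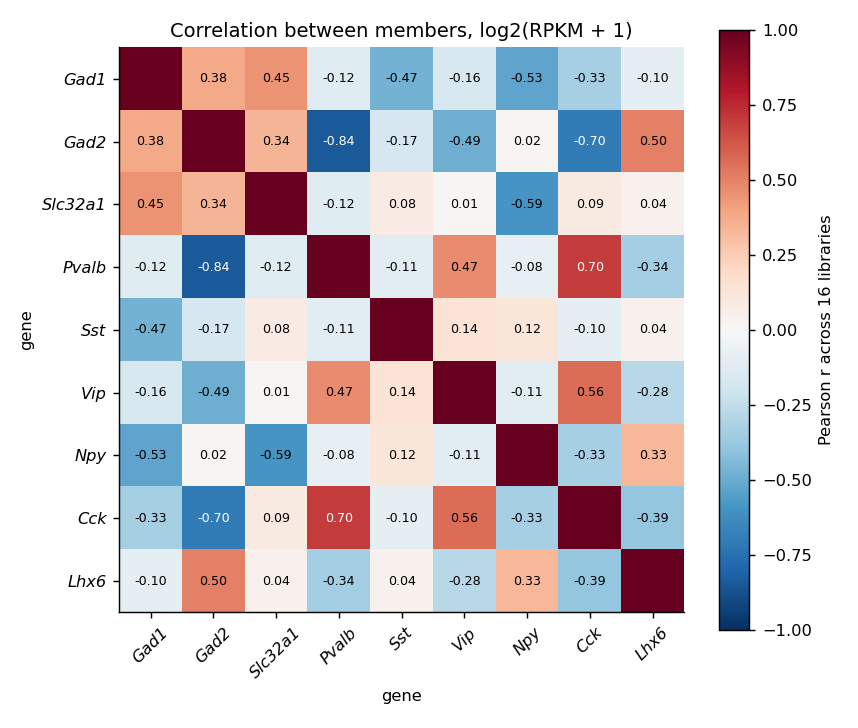
Pearson r between each pair of the 9 interneuron genes over 16 libraries, on log2(RPKM + 1), red for positive and blue for negative. The darkest cells off the diagonal are Gad2 with Pvalb (-0.84), Gad2 with Cck (-0.70) and Pvalb with Cck (0.70).

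The members were then set against 5 lists of cell type and region genes, 45 relations in all, an analysis chosen after the pairs above had been seen. Gad2 fell as the 13 excitatory neuron genes rose, with r = -0.94 between Gad2 and the list's mean log2(RPKM + 1) (permutation p = 1e-05, the smallest these resamples can give, adjusted p = 0.00045; rho = -0.97, permutation p = 1e-05, adjusted p = 0.00045). Without the 2 mice farthest from the list's median it was -0.92, and within genotypes -0.94. Pvalb rose with the same list, with r = 0.86 (permutation p = 5e-05, adjusted p = 0.0011) and rho = 0.88 (permutation p = 5e-05, adjusted p = 0.0011). Without the 2 farthest mice r was 0.82, and within genotypes 0.90. The mouse with the lowest list mean, tau heterozygote 4 at 4.74, had the most Gad2 and the least Pvalb of all 16. The mouse with the least Gad2, tau knockout 1, stood at 5.79, near the top, and the highest list mean was 5.86 in control replicate 2.

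No other member passed against the excitatory list. Cck had r = 0.54 (permutation p = 0.031, adjusted p = 0.17; rho = 0.62, permutation p = 0.012, adjusted p = 0.11; r = 0.52 without the 2 farthest mice). Gad1 had r = -0.29 (permutation p = 0.27, adjusted p = 0.56; rho = -0.43, permutation p = 0.096, adjusted p = 0.31; r = -0.14 without them). Against the striatum list, Gad2 had r = 0.54 (permutation p = 0.03, adjusted p = 0.17; rho = 0.52, permutation p = 0.043, adjusted p = 0.21; r = 0.54 without the 2 farthest mice) and Vip -0.59 (permutation p = 0.016, adjusted p = 0.15; rho = -0.41, permutation p = 0.12, adjusted p = 0.31; r = -0.10 without them). 2 of the 45 relations passed in all, and 6 without control replicate 3. Both measures of a pair come from the same library, and the part of differences between libraries in these correlations was not tested.

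**Figure D5:**
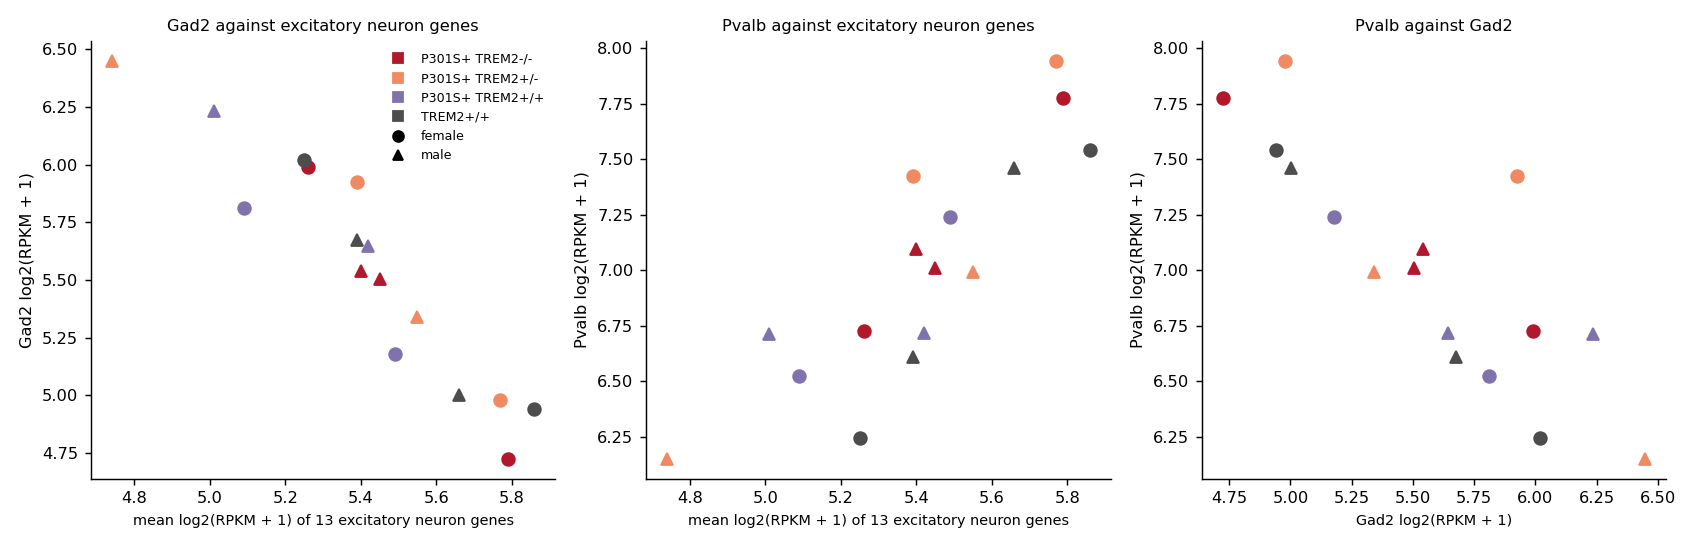
Gad2 (left) and Pvalb (middle) against the mean of 13 excitatory neuron genes, and Pvalb against Gad2 (right), all in log2(RPKM + 1); each point is 1 mouse, coloured by genotype. Gad2 falls along the excitatory genes (r = -0.94) and Pvalb rises (r = 0.86), over mice of all 4 genotypes.

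Among 7986 genes with a mean of at least 5 RPKM, those most like the mean standardised level of Gad1, Gad2 and Slc32a1 over the 16 libraries were Tshz1 (Pearson r = 0.894), Abat (0.886), Osbpl9 (0.884), Lhfpl3 (0.871) and Zcchc12 (0.861). Abat encodes GABA transaminase, the enzyme that breaks GABA down. Over the 15 libraries without control replicate 3 they were Fam126a (0.917), Fstl5 (0.911), Tshz1 (0.898), Limch1 (0.889) and Ptpro (0.887). Tshz1 was in both sets of 5. These are descriptions of the closest genes among many, with no test.

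Of 16 lists, with the members among them, the only call in a genotype comparison was Trem2 in the microglia list, for complete loss. Of the GABA handling list (transporters, GABA breakdown, glutamine supply and inhibitory synapse anchors), 0 of 12 tested genes passed in any comparison. For the P301S effect 10 of its 12 had positive differences, against 57.1% of all genes. The median log2 difference was 0.37, where the median of all genes was 0.057. The list summed to 2990 to 3890 reads per 1000000 in tau TREM2+/+ mice. Controls had 3160 to 3770, apart from control replicate 3 at 1540. The part of that library in the list's differences was not tested. Slc38a3, a glutamine transporter of astrocytes, had a P301S effect of 0.90 (limma adjusted p = 0.262). Nlgn2, the adhesion protein of inhibitory synapses, had a P301S effect of -0.58 (limma adjusted p = 0.265). For complete loss Slc38a3 stood at -0.73 (limma adjusted p = 0.426) and Slc6a13, a GABA transporter, at -0.88 (limma adjusted p = 0.426). The P301S effect and complete loss share the tau TREM2+/+ mice.

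Of the interneuron transcription factors, 0 of 15 tested genes passed in any comparison. Between tau knockouts and tau heterozygotes 1 of the 15 had a positive difference, against 44.5% of all genes. The median was -0.25, against -0.026 for all genes. For complete loss Dlx5, a homeobox factor of the interneuron lineage, stood at -0.87 (limma adjusted p = 0.535) and Dlx1, another of these factors, at -0.66 (limma adjusted p = 0.632).

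Of 21 tested genes of other interneuron subtypes, 0 passed. Reln, the secreted protein of layer 1 and neurogliaform cells, had a P301S effect of 0.72 (limma adjusted p = 0.28). Kit, a receptor tyrosine kinase, stood at -0.81 (limma adjusted p = 0.35) there and at 1.0 for complete loss (limma adjusted p = 0.426). Cnr1, the cannabinoid receptor of cholecystokinin basket cells, had 0.84 for complete loss (limma adjusted p = 0.426). Among 17 tested genes of parvalbumin cell physiology and the perineuronal net, 0 passed. Kcnc1, a potassium channel of fast spiking, had a P301S effect of -0.80 (limma adjusted p = 0.349), and Kcna1, another potassium channel, one of 0.42 (limma adjusted p = 0.348). Kcnc1 averaged 17.6 ± 1.86 RPKM in tau TREM2+/+ mice, against 40.8 ± 39.1 RPKM in controls (n = 4 each, SD). The control values were 99.3 RPKM in replicate 3 and 18.7 to 26.2 RPKM in the others.

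On the receiving side, 0 of 14 GABA receptor subunits and 0 of 8 tested neuropeptide receptors passed. Gabra3 differed by -0.66 between all tau mice and controls (limma adjusted p = 0.243). Sstr2, a somatostatin receptor, differed by 1.49 for complete loss (limma adjusted p = 0.426). Of 10 genes of neuropeptide processing 0 passed. Chga, a granule protein of peptide-releasing cells, had a P301S effect of 0.48 (limma adjusted p = 0.269).

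Genes of neighbouring tissue varied beside the members. The striatum list summed to 1290 to 4300 reads per 1000000 in tau knockouts, 929 to 3000 in tau heterozygotes, 2470 to 3780 in tau TREM2+/+ mice and 910 to 2540 in controls. 0 of its 10 tested genes passed in any comparison. Its median log2 difference was 0.87 for the P301S effect, with 9 of 10 positive, against 57.1% of all genes. For partial loss it was -0.74, with 0 of 10 positive, against 52.5% of all genes. In each of these 1 mouse lay far below its genotype. The list's mean log2(RPKM + 1) was 3.98 in control replicate 1 and 5.53 to 5.73 in the other controls. It was 3.99 in tau heterozygote 3 and 5.13 to 5.87 in the other heterozygotes, against 5.69 to 6.17 in tau TREM2+/+ mice. The excitatory list summed to 5730 to 9240 reads per 1000000 in tau knockouts, 3980 to 9510 in tau heterozygotes, 4810 to 7760 in tau TREM2+/+ mice and 7040 to 18700 in controls, or 7040 to 12800 without control replicate 3. The highest sum was that of control replicate 3. By mean log2(RPKM + 1), the measure correlated with Gad2 and Pvalb above, that library stood at 5.25, within 4.74 to 5.86 over all mice. The 2 measures thus rank it differently. 0 of the list's 13 genes passed, with Camk2a nearest, at -1.01 between all tau mice and controls (limma adjusted p = 0.27). Camk2a was at 160 to 312 RPKM in tau mice, and at 1240 RPKM in control replicate 3 and 300 to 570 RPKM in the other controls. The part of this in the members' values was not tested.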

How the data were processed

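Per the labels' protocols, cortical RNA was sequenced on a HiSeq4000 after Lexogen QuantSeq 3' mRNA-Seq library preparation. The submitters' processing notes name mm10 and the tools STAR, HTSeq, edgeR and limma, with no version or role. What the authors deposited is RPKM; the file headers give only the library name, and the unit was read from the values, in which each gene moves in whole steps of 1 read. Dividing by that step gave whole reads for all 18911 genes above 0 (tolerance 0.001 reads), and implied gene lengths were whole within 0.02 bases for 100.0% of 5538 genes checked. The 1 line without a gene name in each file was dropped. No 2 libraries of a genotype agreed within sampling noise (lowest chi-square per gene 6.87). Read numbers bound counting error only, as PCR copies were not told apart by molecular identifiers.

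Limma 3.58.1 (R 4.3.3, trend) was run on log2(RPKM + 1), which understates changes of low genes, for the 12015 genes averaging 1 RPKM or more, with genotype and additive sex over all 16 libraries (11 residual degrees of freedom, 8 with the sex interaction). The step was tested on simulated data with known changes. Adjusted p-values are Benjamini-Hochberg over all genes, threshold 0.05. The description label gave the genotype and the gender label the sex; each library has a title number of its own and was taken as 1 mouse, and no batch is given in the labels. Coordinates are GENCODE M21 (GRCm38). The 16 lists (205 genes) and the members were chosen with earlier results of these data known. Named list genes are those past the threshold or otherwise those with the lowest p of a list; 1 result under this rule is not reported here. Alternatives were another pseudocount, no filter, quantile scaling, centring on pan-neuron genes, voom on recovered reads with TMM factors, array weights, only the genotypes compared, removal of the 3 libraries that stood apart, and leaving out each library.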

Additional observations from a re-analysis of the deposited data

Results flagged for a closer look

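The summed reads of the 9 members in tau heterozygote replicate 3 came to 2162 reads per 1000000, below the nearest of the other heterozygotes at 2469. The gap was 0.846 of the range of that genotype; that is above the 95% limit of Dixon's test for 4 samples. It was the 1 flag among 44 groups examined, where chance gives about 1 in 20. The same mouse had the lowest striatum list sum of its genotype, 929 reads per 1000000 against 2030 to 3000 in the others. The part of this in the sum was not tested.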

How the results depend on the processing

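No member was called in any genotype comparison under any alternative run: 351 values under other processing held 0 calls and 20 changes of sign, and 720 values with a library left out held 0 calls and 41 changes of sign. Calls appeared only in tests between the sexes. For complete loss 1 member (Gad1) passed with array weights and 1 with only the genotypes compared, and with a library left out the count was 0 to 1. For the P301S effect it was 0 to 2, the 2 only without control replicate 2, where 41.7% of all genes passed. The 3 correlated pairs became 1 with centring on pan-neuron genes and 1 to 4 with a library left out, and the 2 relations with cell type lists became 2 to 6. That centring gave a median over all genes of 0.157 for the P301S effect (0.057 otherwise), 0.18 for all tau mice (0.07 otherwise) and -0.247 for the sex difference in partial loss (-0.04 otherwise). Over all genes, complete loss gave 1 call, but 690 with array weights and 7 with only the genotypes compared, and 0 with voom, with no filter, with centring and without the 3 libraries. The P301S effect gave 0, but 197 with array weights and 1 each with voom and centring. All tau mice gave 1, but 29 with array weights, 2 without the 3 libraries and 0 with no filter. Complete against partial loss gave 0, but 44 without the 3 libraries, 5 with array weights and 1 with only the genotypes compared. The test across genotypes gave 0, but 76 with array weights, 6 without the 3 libraries and 1 each with voom and centring. The sex differences in complete and partial loss gave 0 each, but 444 and 273 with array weights, 417 and 129 with only the genotypes compared and, for partial loss, 3 with no filter. That in the P301S effect gave 1, but 0 with array weights, voom or only the genotypes compared, 5012 without control replicate 2 and 290 without control replicate 3. Without control replicate 2 or 3 those in complete loss gave 565 and 568, and those in partial loss 381 and 385. With a library left out, complete loss gave 0 to 14 calls, the test across genotypes 0 to 8, the P301S effect 0 to 5, all tau mice and complete against partial loss 0 to 2 each, and partial loss 0. The cause was not tested. The log2 differences that changed sign were as follows, none past the threshold. With voom on recovered reads, for P301S effect Gad1 was -0.0118, for all tau mice Pvalb was -0.0247. With array weights, for P301S effect Gad1 was -0.304, Npy was 0.113, for partial loss Gad2 was 0.244, Vip was -0.0479, for all tau mice Pvalb was -0.19, Npy was 0.0911. Without the 3 libraries that stood apart, for P301S effect Vip was -0.182, Npy was 0.222, Cck was -0.0273, for partial loss Gad1 was -0.563, for complete loss Gad1 was -0.577, Cck was 0.043, for all tau mice Pvalb was -0.208, Vip was -0.0794, Npy was 0.152, Cck was -0.0555. With quantile scaling, for partial loss Lhx6 was -0.000229. With centring on pan-neuron genes, for complete against partial Pvalb was -0.00656. With a library left out, these changed sign. For P301S effect Gad1 ran from -0.35 to 0.357, Pvalb ran from -0.49 to 0.0745, Npy ran from -0.324 to 0.173, Lhx6 ran from -0.0587 to 0.264. For partial loss Gad2 ran from -0.284 to 0.167, Slc32a1 ran from -0.121 to 0.24, Sst ran from -0.0456 to 0.343, Vip ran from -0.0938 to 0.265, Lhx6 ran from -0.151 to 0.172. For complete loss Slc32a1 ran from -0.226 to 0.0028, Sst ran from -0.114 to 0.275, Cck ran from -0.259 to 0.0141, Lhx6 ran from -0.00407 to 0.319. For complete against partial Gad1 ran from -0.299 to 0.223, Gad2 ran from -0.476 to 0.00577, Pvalb ran from -0.268 to 0.261, Sst ran from -0.186 to 0.0599. For all tau mice Pvalb ran from -0.263 to 0.302, Vip ran from -0.0222 to 0.333, Npy ran from -0.358 to 0.139, Cck ran from -0.0138 to 0.544. No paired analysis was possible because the labels number mice consecutively and share no number between genotypes. Sex differences were not run without the 3 libraries, which leaves no tau TREM2+/+ female. For complete loss the half-widths of members' 95% intervals ran from 0.464 (Lhx6) to 0.909 (Gad1) on the log2 scale. That of Lhx6 is narrowed by the added 1, and Lhx6 rests on as few as 34 reads.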
